A study of Mus musculus with 295 samples.

Results

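Hao2, the gene of a hydroxyacid oxidase, is 1 of the 11454 genes measured in adipose tissue of an F2 mouse cross, and is read by 1 probe of the array. It was chosen by its measured log ratios, with their distribution over the mice and the relation to Hsd3b1 already known, to describe how it varies, how it relates to its neighbours on chromosome 3, foremost Hsd3b1, and how it relates to all other genes. The cross joined the inbred strains C57BL/6J and C3H/HeJ, both of which lacked ApoE, so that every F2 mouse was ApoE null. Females and males were given "Western" chow, high in fat, between 8 and 24 weeks of age. For each of 295 mice, Cy3-labelled RNA was hybridised on 1 array against Cy5-labelled RNA of a shared pool, to which every mouse gave an equal portion. The labels put all mice in 1 group and give no sex, genotype or body weight for a single mouse, and nothing in them says from which fat depot the tissue came.

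The mice were therefore described in 2 sets, split at a log10 ratio of -0.6 for Eif2s3y, a gene of the Y chromosome. The Eif2s3y-high set held 153 mice, with log2 ratios of -0.10 or more, and the Eif2s3y-low set held 142 mice, with log2 ratios of -4.16 or less. These sets come from the measured values and are not groups of the labels. All values below are log2 ratios of a mouse over the pool, so that 0 is the average of the pool and 1 is 2-fold above it. They cannot be compared between genes as amounts, and whether the tissue holds adipocytes cannot be read from ratios to a pool of the same tissue.

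Hydroxyacid oxidases are enzymes of the peroxisome that carry a flavin and oxidise 2-hydroxy acids to 2-keto acids, releasing hydrogen peroxide. Hao1 is the glycolate oxidase of liver, while Hao2 acts on longer hydroxy acids and is known mostly from kidney and liver. On mouse chromosome 3 Hao2 lies next to the Hsd3b cluster, whose enzymes act on the 3-beta-hydroxyl group of steroids. In the mouse, Hsd3b1 is the form of gonads and adrenal cortex, Hsd3b2 is known from kidney and liver, Hsd3b4 from kidney and Hsd3b5 from male liver.

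The 250 bases that lie before the annotated start of Hao2 and of the 2 cluster members that varied most closely with it are shown because both were found to move with Hao2, each in a different set of mice. They are RefSeq sequences of GRCm38.p6, 5′ to 3′ on the minus strand, at chr3:98893231-98893480 for Hao2, chr3:98859795-98860044 for Hsd3b1 and chr3:98724544-98724793 for Hsd3b2. Capitals mark a half-site of the HNF1 factors, GTTAAT or its reverse complement ATTAAC. HNF1 factors act in kidney tubules and liver.
Hao2: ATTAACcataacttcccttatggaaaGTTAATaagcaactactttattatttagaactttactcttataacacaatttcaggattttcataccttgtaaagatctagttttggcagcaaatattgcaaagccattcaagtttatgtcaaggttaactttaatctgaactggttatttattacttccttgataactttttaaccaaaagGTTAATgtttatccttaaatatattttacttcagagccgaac
Hsd3b1: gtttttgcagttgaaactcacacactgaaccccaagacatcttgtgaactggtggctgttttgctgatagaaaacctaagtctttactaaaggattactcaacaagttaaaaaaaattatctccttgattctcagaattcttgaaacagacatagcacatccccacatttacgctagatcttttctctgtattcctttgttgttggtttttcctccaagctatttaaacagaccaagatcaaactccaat
Hsd3b2: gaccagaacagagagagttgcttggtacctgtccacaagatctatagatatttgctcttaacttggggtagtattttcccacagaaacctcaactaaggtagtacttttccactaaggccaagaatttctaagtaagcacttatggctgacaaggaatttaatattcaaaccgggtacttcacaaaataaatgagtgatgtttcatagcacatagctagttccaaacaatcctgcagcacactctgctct
The Hao2 window held the half-site 3 times and the windows of Hsd3b1 and Hsd3b2 held it 0 times. Of 32851 windows of the same length, 6.43% held it at least once on either strand, and 7 held it at least 3 times. The site AAGGTCA of the steroidogenic factor NR5A1, searched with TGACCTT on the other strand, was in none of the 3 windows and in 4.08% of all windows. No 2 of the half-sites overlap in the Hao2 window. These motifs were chosen after the sequence was seen, and a match only describes the letters of the window.

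Some arrays carried transcripts of other organs, and these arrays stand apart in Hao2. Ovary transcripts, scored as the mean z-score of 11 ovary genes over mice, were above 0.5 on 53 arrays, all in the Eif2s3y-low set. The highest ovary score in the Eif2s3y-high set was 0.080, while within the Eif2s3y-low set the scores next to the threshold were 0.58 and 0.42. Kidney transcripts, scored over 19 genes of the kidney tubule, were above 1.2 on 10 arrays, 7 in the Eif2s3y-high set and 3 in the Eif2s3y-low set. The scores next to this threshold were 1.66 and 1.18 in the Eif2s3y-high set and 1.39 and 0.83 in the Eif2s3y-low set, so that the kidney score has no wide gap there. One array of the Eif2s3y-low set had both. Epididymis transcripts were above a score of 1 on 48 arrays, all Eif2s3y-high, with Hao2 at -3.61, -2.75 and 1.94 (lowest, median and highest) on them, against -4.57, -2.99 and 3.52 on the other 105 Eif2s3y-high arrays. An array is said to have neither kind when it lies at or below both the ovary and the kidney threshold. Such an array may still carry some of these transcripts. The array sets for ovary and kidney were set after the data were seen. In such bulk samples fewer cells of a type and less RNA per cell cannot be told apart.

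Hao2 varied widely among the mice. Its SD was 2.05 ± 0.08 (SE, n = 295), rank 45 of 11454 genes, against a median SD of 0.29 over all probes. Levels ran from -4.57 to 3.94, with a median of -2.63, and the central 90% of mice spanned 67.5-fold. Most mice therefore lay far below the pool and a minority far above it. Over the Eif2s3y-high mice the lowest, median and highest levels were -4.57, -2.87 and 3.52, and in the Eif2s3y-low set they were -3.86, -1.85 and 3.94. The SD was 1.30 in the Eif2s3y-high set and 2.32 in the Eif2s3y-low set, and the sets overlapped over nearly their whole range.

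The shape differed between the sets. In the Eif2s3y-high set 143 of 153 mice lay at or below 0, in a single mass with a thin tail above it. The Eif2s3y-low mice fell into 2 clusters, with 57 mice at 0.41 or above, 3 between -0.52 and -0.10 and 82 at -1.04 or below. Hao2 was chosen for this distribution, so none of it was tested.

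**Figure D1:**
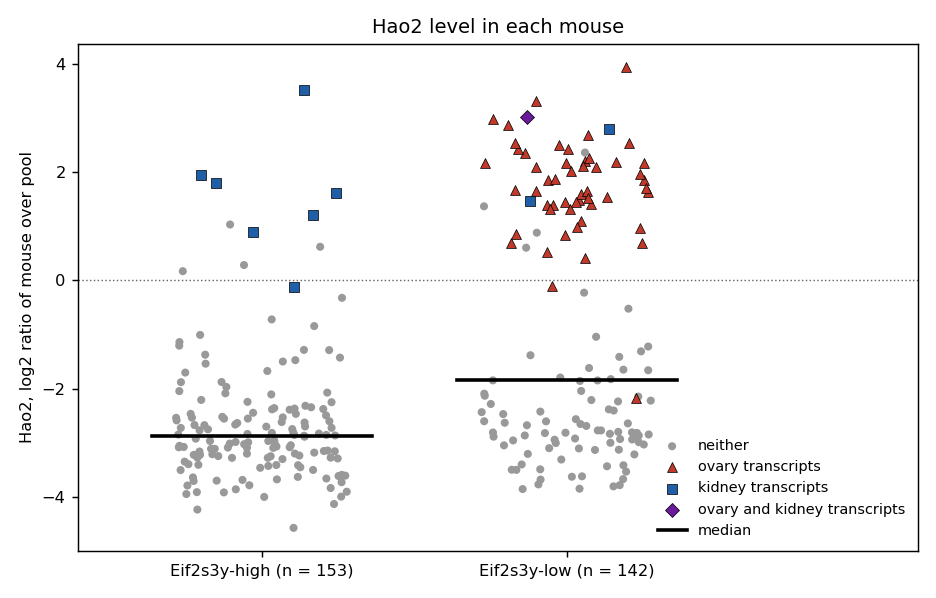
Log2 ratio of Hao2 (mouse over pool, y axis) in each mouse of the Eif2s3y-high set (left) and the Eif2s3y-low set (right), with 1 point per mouse, spread sideways for display, and the median of each set as a line. Triangles are arrays with ovary transcripts, squares arrays with kidney transcripts, the diamond the array with both, and the dotted line marks the pool. Of the 67 mice above 0, 8 lie on arrays at or below both score thresholds, for ovary and for kidney transcripts.

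The upper part of the distribution was made up largely of the arrays with organ transcripts. Of the 10 Eif2s3y-high mice above 0, 6 had kidney transcripts and 4 had neither kind. Of the 57 Eif2s3y-low mice above 0, 51 had ovary transcripts, 3 had kidney transcripts, counting the 1 that had both, and 4 had neither. The arrays with kidney transcripts in the Eif2s3y-high set had Hao2 at -0.13, 1.61 and 3.52 (lowest, median and highest of 7), against -4.57, -2.97 and 1.03 on the other 146 arrays. The arrays with ovary transcripts in the Eif2s3y-low set had -2.17, 1.71 and 3.94 (53 arrays), against -3.86, -2.81 and 2.36 on the 87 arrays with neither kind. Without all of these arrays 233 mice were left, and their SD of Hao2 was 1.02, with a central 90% that spanned 8.26-fold. Whether RNA of these organs makes up the Hao2 signal on those arrays was not tested.

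Single mice show the 2 patterns plainly. Mouse_84, the highest of the Eif2s3y-high set with Hao2 at 3.52, had Slc34a1, the phosphate carrier of the proximal kidney tubule, at 4.02 and Hsd3b2 at 4.44, while its Hsd3b1 was -4.10. Mouse_8 had Hao2 at 1.94, Slc34a1 at 3.78 and Hsd3b1 at -4.42. Mouse_21, the highest of the Eif2s3y-low set with Hao2 at 3.94, had Slc34a1 at -2.61 and Hsd3b1 at 3.50. Mouse_46 had Hao2 at 3.31, Slc34a1 at 0.23 and Hsd3b1 at 2.65. The first pair was high in the kidney gene and low in Hsd3b1, and the second pair was high in Hsd3b1.

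Counted over the mice, Hsd3b1 was above the pool together with Hao2 in most such mice of the Eif2s3y-low set and in 1 of the Eif2s3y-high set. Of the 10 Eif2s3y-high mice with Hao2 above 0, 1 had Hsd3b1 above 0, against 0 of 143 with Hao2 at or below 0. Of the 57 Eif2s3y-low mice with Hao2 above 0, 53 had Hsd3b1 above 0, against 1 of 85 with Hao2 at or below 0. Slc34a1 was above 0 in 8 of the 10 Eif2s3y-high mice with Hao2 above 0 and in 16 of the other 143. In the Eif2s3y-low set it was above 0 in 8 of the 57 and in 3 of the other 85.

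Hsd3b1 itself ran from -5.30 to 0.35, with a median of -4.31, in the Eif2s3y-high set, and from -4.85 to 3.50, with a median of -3.65, in the Eif2s3y-low set. Among Eif2s3y-high mice its Pearson r with Hao2 was 0.27 and its Spearman rho 0.25 (n = 153), and r was 0.085 without mouse_12 and mouse_73. Those mice had the highest Hsd3b1 of that set, at -0.15 and 0.35, with Hao2 at 0.28 and 1.03, and both lie on arrays with epididymis transcripts. Without the 48 arrays with epididymis transcripts r was 0.10, and without the 7 arrays with kidney transcripts, which lay between -4.94 and -4.10 in Hsd3b1, it was 0.47. Among Eif2s3y-low mice r over all 142 mice was 0.91 and rho 0.82, but these mice fall into clusters. Within the arrays with ovary transcripts r was 0.83 without mouse_322 (n = 52), whose Hao2 of -2.17 was the lowest of them, and 0.88 with it. Within the 87 arrays with neither kind r was 0.63. On those arrays Hsd3b1 had a median of -4.08 and a highest value of 2.68. That value belonged to mouse_144, which also had their highest Hao2, 2.36, and r without this mouse was not computed. Hsd3b1 was named when Hao2 was chosen, so these values describe the relation and do not test it.

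**Figure D2:**
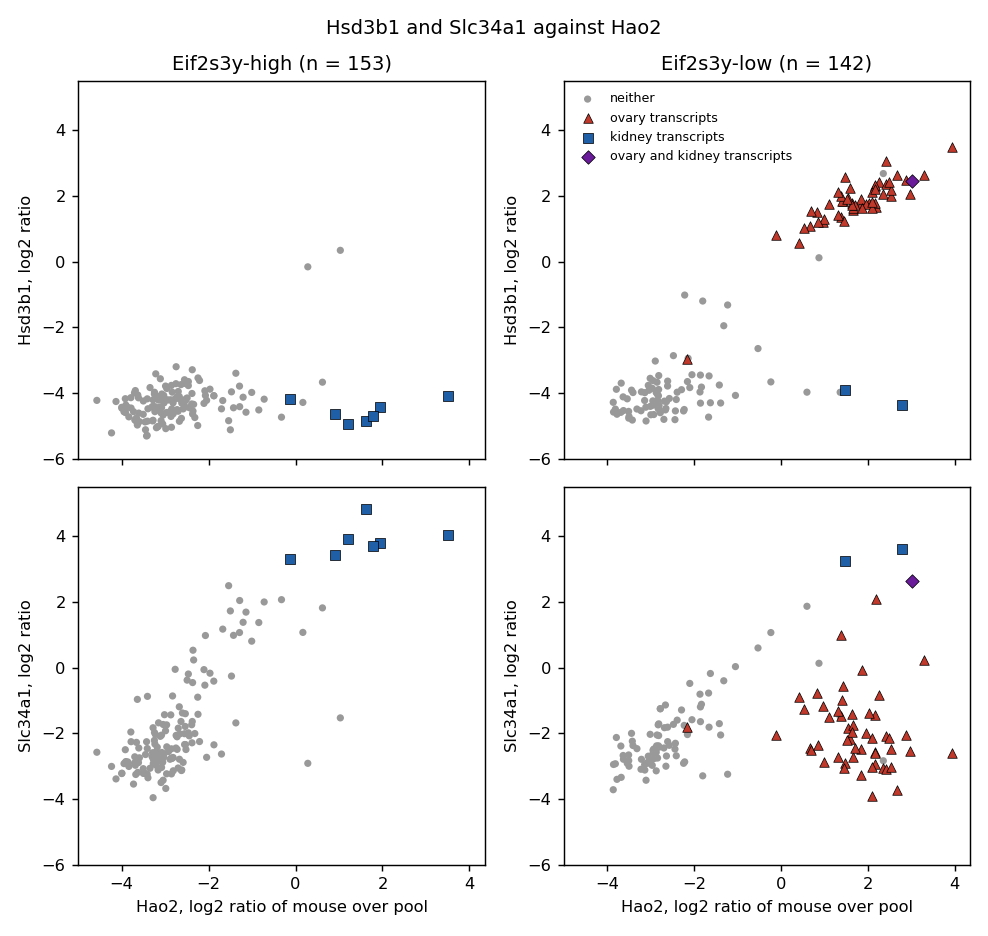
Log2 ratios of Hsd3b1 (upper row) and Slc34a1 (lower row) against that of Hao2 in the Eif2s3y-high set (left) and the Eif2s3y-low set (right), with 1 point per mouse and the symbols for organ transcripts given in the legend. Over the Eif2s3y-high mice Slc34a1 climbs with Hao2 while Hsd3b1 does not go above 0.35, and in the Eif2s3y-low set the arrays with ovary transcripts lie high in both Hao2 and Hsd3b1.

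The relation to neighbours was measured over the 10 measured genes on each side of Hao2 in the RefSeq gene order. Every probe was fitted on the Hao2 level within a set by limma (moderated linear model), with Benjamini-Hochberg adjustment over 22893 probes and a call at an adjusted p under 0.05. A slope is the change of a gene in log2 units per log2 unit of Hao2. A gene is read by its most variable probe. By those probes 3 of 20 neighbours were higher with Hao2 and 0 were lower in the Eif2s3y-high set, where 4.94% of all genes were called, 3.67% higher and 1.27% lower. At an unadjusted p under 0.05 there were 7. Over the Eif2s3y-low mice 3 were higher and 4 were lower, where 24.9% of all genes were called, 11.1% higher and 13.8% lower. With so many genes called in the Eif2s3y-low set, its 7 neighbours are no result about the region, and the 3 of the Eif2s3y-high set are related genes of 1 cluster. For 4 of the 20 neighbours, Hsd3b4, Hsd3b5, Fmo5 and Spag17, the array has further probes, and these gave other calls. In the Eif2s3y-high set a second probe of Hsd3b4 was higher (r 0.39, adjusted p 7.89e-05), 1 of the 3 probes of Spag17 was higher (r 0.28, adjusted p 0.0175), and a second probe of Fmo5 was lower (r -0.28, adjusted p 0.0254). For Spag17, a gene of the sperm flagellum, the most variable probe had r -0.12 in the Eif2s3y-high set, and for Fmo5, a flavin-containing monooxygenase, it had r -0.045.

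The 3 called in the Eif2s3y-high set were Hsd3b1, Hsd3b2 and Hsd3b5, all in the cluster before Hao2. Hsd3b1 is counted among the called in both sets, but it was named when Hao2 was chosen, so its calls are no test. Hsd3b2 had a median of -0.30 and a highest value of 4.44 in the Eif2s3y-high set, and a median of -0.34 and a highest value of 1.56 in the Eif2s3y-low set. Its slope on Hao2 was 0.55 ± 0.03 (SE) in the Eif2s3y-high set, with r 0.82 and an adjusted p of 2.05e-36. In the Eif2s3y-low set its slope was 0.032 ± 0.012, with r 0.22 and an adjusted p of 0.0413. On the Eif2s3y-high arrays with kidney transcripts Hsd3b2 lay between 2.04 and 4.44, and without those arrays r was 0.63. Of the other 146 Eif2s3y-high arrays the highest value was 4.26, in mouse_12, so the array sets overlapped in Hsd3b2.

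Hsd3b5 had a slope of 0.47 ± 0.06 and r 0.56 in the Eif2s3y-high set (adjusted p = 4.86e-12), and 0.041 ± 0.020 and r 0.17 in the Eif2s3y-low set (adjusted p = 0.117). Its r in the Eif2s3y-high set was 0.28 without the arrays with kidney transcripts. The other probe of Hsd3b5 gave r -0.088 in the Eif2s3y-high set and was lower with Hao2 in the Eif2s3y-low set (r -0.38, adjusted p 7.9e-05), so the 2 probes disagree in both sets. The 2 probes of Hsd3b4 disagree as well, with r -0.014 for the more variable one and 0.39 for the other in the Eif2s3y-high set, while both had r -0.23 in the Eif2s3y-low set. Hsd3b6, known from Leydig cells and skin, was not called in either set, with r 0.044 in the Eif2s3y-high and -0.14 in the Eif2s3y-low set. Genes of this cluster are close copies of each other, so signal may be shared among their probes, and which member a probe reads is uncertain.

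On the far side of Hao2 the calls were weaker. Trim45, an ubiquitin ligase gene, had r 0.16 in the Eif2s3y-high set and was higher with Hao2 in the Eif2s3y-low set (r 0.23, adjusted p 0.0289). Vtcn1, a B7 family inhibitor of T cells, was lower in the Eif2s3y-low set (r -0.32, adjusted p 0.00171), as were Ptgfrn (r -0.29), a prostaglandin receptor regulator, and Mab21l3 (r -0.30). By their most variable probes 0 of the 10 genes on that side were called in the Eif2s3y-high set by limma, and 2 had an unadjusted p under 0.05, while 1 of the other probes of Spag17 was called. That probe also differed in slope between the sets, with r 0.28 in the Eif2s3y-high set and -0.20 in the Eif2s3y-low set (adjusted p of the difference 0.00048).

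**Figure D3:**
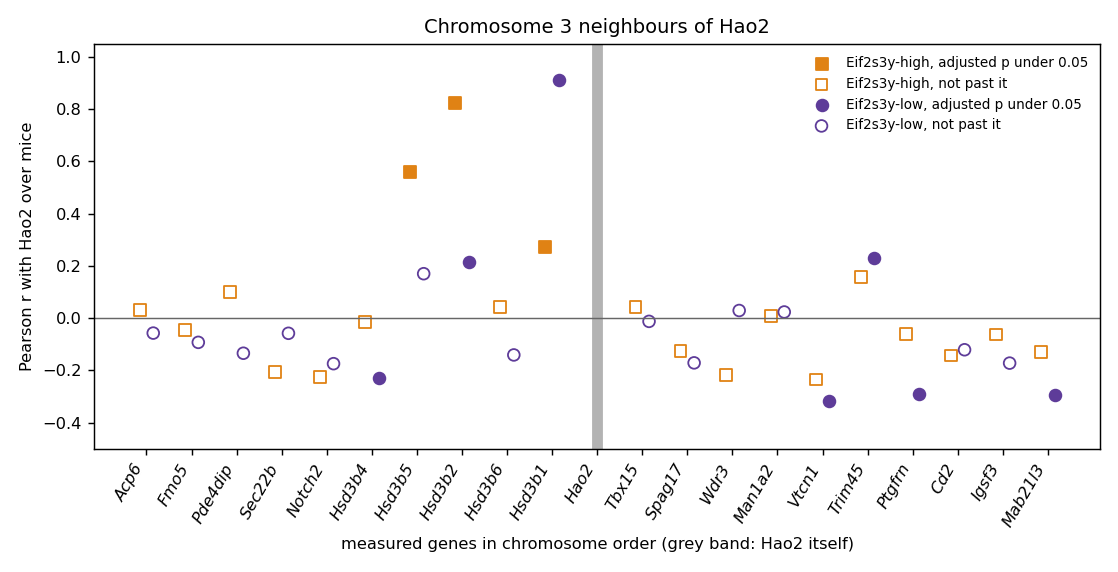
Pearson r with Hao2 over mice (y axis) for the most variable probe of the 10 measured genes on each side of Hao2 in chromosome order, as squares in the 153 Eif2s3y-high mice and circles in the 142 Eif2s3y-low mice. Filled symbols passed an adjusted p of 0.05. Hsd3b1 was named when Hao2 was chosen, so its filled symbols are no test. Among Eif2s3y-high mice Hsd3b2 and Hsd3b5 are the highest, and in the Eif2s3y-low set Hsd3b1 is, at 0.91.

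Over all probes, 1038 were called with Hao2 in the Eif2s3y-high set, 717 higher and 321 lower, and 5550 in the Eif2s3y-low set, 2291 higher and 3259 lower. These are 4.53% and 24.2% of 22893 probes. With each array's median removed the split was 1151 higher and 49 lower in the Eif2s3y-high set, and 2687 higher and 1217 lower in the Eif2s3y-low set, so that the share of lower calls rests on how arrays are centred. With Hao2 taken as its rank over the mice the Eif2s3y-high split was 529 higher and 552 lower, and 5 of the 10 genes of highest r were shared with those named here. Over all genes the median r was -0.054 in the Eif2s3y-high set and -0.075 in the Eif2s3y-low set. The counts also changed when arrays with organ transcripts were left out. Without the arrays with kidney transcripts 1232 probes were called in the Eif2s3y-high set, and without the arrays with ovary or kidney transcripts 194 were called in the Eif2s3y-low set, 191 higher and 3 lower. Without mouse_12 and mouse_73 the Eif2s3y-high count was 489.

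The genes most like Hao2 in the Eif2s3y-high set included several carriers of the kidney tubule. The 10 with the highest r over 153 mice were Slc17a1, a phosphate and urate carrier (0.85), Calb1, a calcium binding protein of the distal tubule (0.84), the kinase gene Sgk2 (0.84), Slc3a1, a subunit of the cystine carrier (0.84), the phosphate carrier Slc34a3 (0.84), Slc22a6, the organic anion carrier OAT1 (0.84), Slc17a3 (0.84), G6pc, the glucose-6-phosphatase of liver and kidney (0.83), the nuclease gene Dnase1 (0.83) and Rdh16f2, a retinol dehydrogenase (0.83). Slc17a1 had 3.27, 4.09 and 5.40 (lowest, median and highest) on the 7 arrays with kidney transcripts, against -2.41, -1.04 and 2.78 on the other 146, and the 2 sets of arrays did not overlap. Its slope on Hao2 was 0.94 ± 0.05 (adjusted p = 1.12e-40). Its r was 0.82 without the 2 mice farthest in Hao2 and 0.70 without the arrays with kidney transcripts (adjusted p 5.2e-19).

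The kidney tubule list had 19 measured genes. Over the Eif2s3y-high mice 16 were higher with Hao2 and 0 were lower, with a median r of 0.66, where 3.67% of all genes were higher. Slc34a1 had a slope of 1.18 ± 0.07, the inositol oxygenase Miox 1.17 ± 0.07, Kl, the gene of the hormone co-receptor klotho, 0.88 ± 0.07, and Kap, an androgen-regulated protein of the tubule, 0.74 ± 0.05. The 3 that did not pass were Slc5a2 (r 0.11), Slc12a1 (r 0.23) and Aqp2 (r 0.23). The list score set the array sets, so the list's lead on those arrays is no separate finding. Without the 7 arrays with kidney transcripts 11 of 19 were higher and 0 lower, with a median r of 0.27 beside -0.047 over all genes, where 4.93% of genes were called.

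The Eif2s3y-low set had other genes at the top. Over its 142 mice the highest r with Hao2 belonged to Mgarp, a mitochondrial protein gene of steroidogenic cells (0.91), Hsd3b1 (0.91), Lama1, a laminin chain (0.91), Cyp11a1, the side-chain cleavage enzyme that starts steroid synthesis (0.90), Dync1i1, a dynein chain (0.89), the folate receptor Folr1 (0.89), Hsd17b1, an estradiol-forming enzyme of granulosa cells (0.87), Nr5a1, the steroidogenic factor (0.87), Acsbg1, an acyl-CoA synthetase (0.87), and the chromatin gene Smarca1 (0.87). Since the mice fall into clusters, r within clusters is given too. Within the 52 arrays with ovary transcripts other than mouse_322, Mgarp had r 0.88, Smarca1 0.85, Dync1i1 0.79, Cyp11a1 0.65, Nr5a1 0.57 and Hsd17b1 0.56. Within the 87 arrays with neither kind, Mgarp had r 0.67, Cyp11a1 0.57, Nr5a1 0.48 and Hsd17b1 0.25, and of these 4 Hsd17b1 did not pass the adjusted threshold (0.488). Mouse_144 had the highest Hao2 (2.36), Cyp11a1 (1.51) and Nr5a1 (2.36) of those arrays, and r without it was not computed.

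Cyp11a1 shows the levels behind this. It had 1.60 as its median and -2.23 and 2.75 as lowest and highest values on the 53 arrays with ovary transcripts, against a median of -3.04 and values from -3.82 to 1.51 on the 87 with neither kind. The bulk of the array sets was apart and their ranges overlapped. In the Eif2s3y-high set the median was -3.15 and the highest value 0.41, in mouse_12. Its slope on Hao2 was 0.097 ± 0.032 in the Eif2s3y-high set (adjusted p = 0.0549) and 0.88 ± 0.04 in the Eif2s3y-low set (adjusted p = 4.04e-50). In the Eif2s3y-high set it was called higher without the arrays with kidney transcripts, and also with array medians removed.

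Of the 11 measured ovary genes 0 were called in the Eif2s3y-high set by limma, where 4.94% of all genes were called. Their median r was 0.041, with 0 at an unadjusted p under 0.05. In the Eif2s3y-low set, where 11.1% of all genes were higher, 9 were higher with Hao2. They include Foxl2, the granulosa cell factor (slope 0.57 ± 0.03), Inhba, an activin subunit (0.73 ± 0.04), and Gdf9 and Zp2, made by the oocyte (0.41 ± 0.02 and 0.40 ± 0.02). Fshr went the other way, with the lowest r of the 11, -0.21, and was not called there. Again the list score set the ovary arrays. Within those arrays 7 of 11 were higher and 1, Fshr (r -0.53), was lower without mouse_322. The median r of the 11 was 0.47 beside 0.019 over all genes, where 32.8% of genes were called. Within the arrays with neither kind 0 of 11 were called by limma and 2 had an unadjusted p under 0.05, where 1.07% of genes were called. Without the kidney arrays 1 of the 11, Ovgp1, an oviduct glycoprotein, was higher in the Eif2s3y-high set.

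Of 19 measured genes of steroid synthesis and metabolism, 4 were higher with Hao2 and 0 lower in the Eif2s3y-high set, where 3.67% of all genes were higher. Among Eif2s3y-low mice 13 were higher and 1 lower, where 11.1% of all genes were higher and 13.8% lower. The 4 were Hsd3b2, Hsd3b1, Nr5a1 (r 0.28) and Fdx1, the ferredoxin that feeds the mitochondrial steroid enzymes (r 0.27). Mouse_12 and mouse_73 had the highest Nr5a1 of that set, at 1.69 and 0.70. The next highest was -0.89, in mouse_55, and the median was -1.91. Without the arrays with kidney transcripts 5 of the 19 were higher and 0 lower in the Eif2s3y-high set, where 4.93% of genes were called. These were Cyp11a1, Hsd3b1, Hsd3b2, Inha and Nr5a1, and the median r of the 19 was 0.16. Mouse_12, with the highest Cyp11a1 and Inha of the set, was still among those arrays. Hsd3b1 is counted in both sets, though its relation to Hao2 was known beforehand and its calls are no test. Among Eif2s3y-low mice Fdx1 had r 0.83, Akr1c18, which inactivates progesterone in the ovary, 0.78, and Cyp17a1, which leads to androgens, 0.67. Within the ovary arrays without mouse_322 the r of Cyp17a1 was -0.22. Within the arrays with neither kind 5 of 19 were higher and 0 lower, with a median r of 0.19 beside -0.028 over all genes, where 1.07% of genes were called. Among the 5, Hsd3b1, Cyp11a1 and Nr5a1 had their highest value on those arrays in mouse_144. Cyp21a1, an enzyme of the adrenal cortex, had r -0.016 in the Eif2s3y-high set and 0.096 in the Eif2s3y-low set, and its highest values were 0.71 in mouse_73 of the Eif2s3y-high set and 2.54 in mouse_21 and 2.10 in mouse_144 of the Eif2s3y-low set.

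Over the Eif2s3y-low arrays with neither kind of transcript, genes of both patterns rose with Hao2, but not always in the same mice. Over these 87 mice Miox had r 0.66, Kl 0.66, Mgarp 0.67, Hsd3b1 0.63, Slc34a1 0.61 and Hsd3b2 0.52 with Hao2. Mouse_144 had Hsd3b1 at 2.68 with Slc34a1 at -2.83, and mouse_77 had Hsd3b1 at -3.97 with Slc34a1 at 1.87. In mouse_296 they were 0.12 and 0.13. Of the kidney tubule genes 8 of 19 were higher and 0 lower there, where 1.07% of all genes were called. Within the ovary arrays without mouse_322 the r of Slc34a1 was -0.0061 and that of Hsd3b2 was 0.18, neither past the threshold. Of the 19 kidney tubule genes 6 were higher on those arrays and 0 lower, where 32.8% of genes were called. The highest r there was that of Aqp2, at 0.61. Over all Eif2s3y-low mice 8 of the 19 were higher and 1 lower, where 11.1% of all genes were higher and 13.8% lower.

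**Figure D4:**
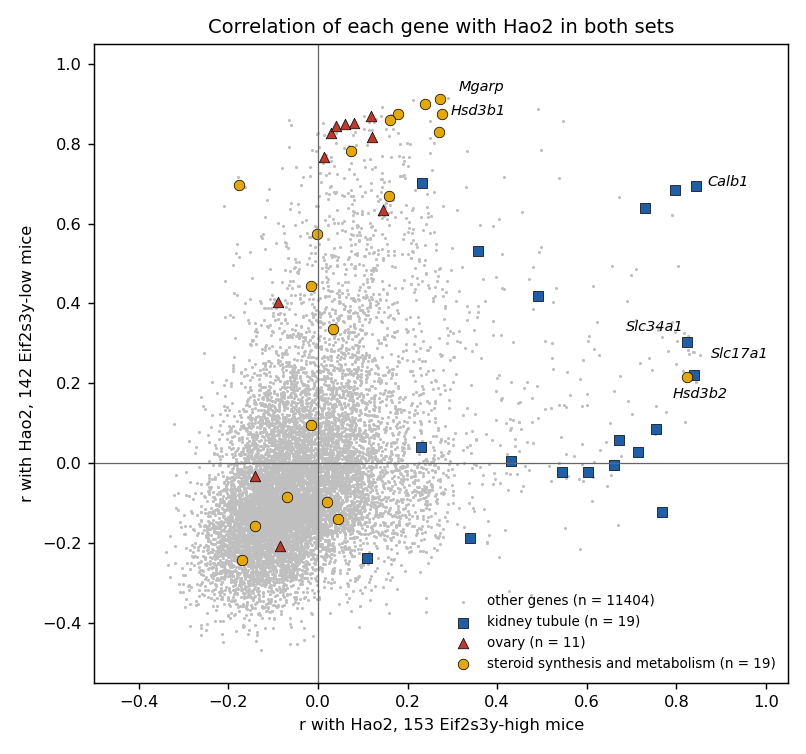
Pearson r of each gene with Hao2 in the 153 Eif2s3y-high mice (x axis) and the 142 Eif2s3y-low mice (y axis), with 1 point per gene and 3 lists in colour. Kidney tubule genes reach r 0.84 on the x axis. On the y axis steroid genes reach 0.91 and ovary genes 0.87, and Calb1, at 0.84 and 0.69, is high on both axes.

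The difference of the slopes between the sets was tested as an interaction in limma over all 295 mice. It was called for 1346 probes, 768 with the larger slope in the Eif2s3y-high set and 578 with the larger slope in the Eif2s3y-low set, which is 5.88% of the probes. Among genes 6.65% were called, 3.72% with the larger and 2.93% with the smaller slope in the Eif2s3y-high set. With array medians removed the split was 982 and 447, on the rank of Hao2 it was 465 and 483, and without mouse_12 and mouse_73 it was 447 and 549, so which set has more of the larger slopes depends on these choices. Hsd3b1 had a slope of 0.14 ± 0.04 in the Eif2s3y-high set and 1.15 ± 0.04 in the Eif2s3y-low set. Since Hsd3b1 was named when Hao2 was chosen, its slopes and their difference are a description. Hsd3b2 had the reverse order, 0.55 ± 0.03 in the Eif2s3y-high set and 0.032 ± 0.012 in the Eif2s3y-low set, and its difference of 0.52 ± 0.03 had an adjusted p of 2.27e-41. Without the arrays with ovary or kidney transcripts 30 probes were called, and the difference for Hsd3b1 was -0.28 with an adjusted p of 0.188. The difference for Hsd3b2 was then 0.24 and still passed (adjusted p 0.00175). Mouse_12 was still among those arrays, with Hsd3b2 at 4.26 against a median of -0.31 on the Eif2s3y-high arrays without kidney transcripts. A fit without mouse_12 as well was not run.

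The enzymes that share Hao2's chemistry or its organelle were described as a list. Of 24 measured genes of hydroxyacid and peroxisomal oxidation, 7 were higher with Hao2 and 0 lower in the Eif2s3y-high set, with a median r of 0.032, where 4.94% of all genes were called. Over the Eif2s3y-low mice 3 were higher and 6 lower, with a median r of -0.13, where 24.9% of all genes were called. The balance was the other way within the ovary arrays without mouse_322, with 5 higher, 1 lower and a median r of 0.21, where 32.8% of genes were called. Within the arrays with neither kind 0 of the 24 were called by limma, 2 had an unadjusted p under 0.05 and the median r was 0.0093. The highest in the Eif2s3y-high set were Amacr, which turns over methyl-branched acids (r 0.61), Pecr, an enoyl-CoA reductase (r 0.54), Acox2, the oxidase of branched and bile acid chains (r 0.49), Pipox, which breaks down pipecolate (r 0.48), and Dao, the D-amino acid oxidase (r 0.45). Without the arrays with kidney transcripts their r was 0.14, -0.021, 0.20, 0.24 and 0.11, and of the 24 only Eci2, an isomerase of unsaturated chains, was called (r 0.27), a gene named after its value was seen. Acox2 and Pipox were also higher in the Eif2s3y-low set, with r 0.53 and 0.39.

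Its nearest relatives in function had these values. Hao1, the other hydroxyacid oxidase, had r -0.065 in the Eif2s3y-high set (adjusted p 0.645) and r -0.21 in the Eif2s3y-low set (adjusted p 0.049). Agxt, which removes the glyoxylate that hydroxyacid oxidases form from glycolate, had r -0.13 in the Eif2s3y-high set and 0.0037 in the Eif2s3y-low set, and was called in neither. Grhpr, which reduces glyoxylate and hydroxypyruvate, had r 0.23 in the Eif2s3y-high set (adjusted p 0.0682) and 0.22 in the Eif2s3y-low set (adjusted p 0.0362). Within the ovary arrays without mouse_322 its r was 0.64. Hsd17b4, the multifunctional enzyme of peroxisomal beta-oxidation, was lower with Hao2 in the Eif2s3y-low set (r -0.32) and had r -0.085 in the Eif2s3y-high set. Of 16 measured genes of peroxisome biogenesis 0 were called in the Eif2s3y-high set by limma and 1 had an unadjusted p under 0.05, and 0 were higher and 3 lower in the Eif2s3y-low set, Pex19, which inserts membrane proteins (r -0.38), Pex16 and Pxmp4. Of all genes 13.8% were lower there and 24.9% were called in either direction. Beside these shares the 3 of 16 are no result about the list. Within the ovary arrays without mouse_322 the direction turned, with 7 of the 16 higher, 0 lower and a median r of 0.30, where 32.8% of genes were called, and within the arrays with neither kind 0 were called by limma and 1 had an unadjusted p under 0.05.

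Lists of adipose metabolism held few calls over all mice of a set. Of all genes 4.94% were called in the Eif2s3y-high set and 24.9% in the Eif2s3y-low set. For lists this short, 0 calls in the Eif2s3y-high set lies near that share and is no result about the list. Of 13 genes of mitochondrial fatty acid oxidation only Ppara, the fatty acid receptor, was called in the Eif2s3y-high set, with a slope of 0.19 ± 0.03 and r 0.44 (adjusted p = 1.2e-06), and r was 0.19 without the arrays with kidney transcripts. Over the Eif2s3y-low mice 0 of the 13 were called by limma and 2 had an unadjusted p under 0.05. Among Eif2s3y-high mice 0 of 10 adipocyte genes, 0 of 13 genes of fatty acid synthesis and 0 of 11 genes of branched-chain amino acid breakdown were called, with median r of -0.062, -0.021 and -0.036 and with 2, 1 and 1 at an unadjusted p under 0.05 by limma. In the Eif2s3y-low set 0, 0 and 2 were called, with median r of -0.17, -0.081 and -0.14, and 6, 0 and 4 had an unadjusted p under 0.05. The 2 were Bcat1, which starts the breakdown (higher, r 0.65), and the kinase gene Bckdk (lower, r -0.26). Within the ovary arrays without mouse_322, where 32.8% of genes were called, more members passed. There 4 of the 13 genes of mitochondrial fatty acid oxidation and 5 of the 11 of branched-chain amino acid breakdown were higher and 0 of each lower, and of the adipocyte genes 1 was higher and 2 lower. Lep, the gene of leptin, had r -0.054 in the Eif2s3y-high set and -0.20 in the Eif2s3y-low set, called in neither, and was lower within the ovary arrays without mouse_322 (r -0.52). Apoe had r 0.021 in the Eif2s3y-high set and -0.22 in the Eif2s3y-low set (adjusted p 0.0406).

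Lists of other cell types are read beside the 4.94% of all genes called in the Eif2s3y-high set and the 24.9% called in the Eif2s3y-low set, where 11.1% were higher and 13.8% lower. Of 14 epithelial genes 0 were called in the Eif2s3y-high set by limma, with 1 at an unadjusted p under 0.05, and 8 were higher in the Eif2s3y-low set, where Epcam, an epithelial surface protein, had r 0.69. On the Eif2s3y-low arrays with neither kind 3 of the 14 were higher and 0 lower, where 1.07% of genes were called. By limma 8 of the 14 had an unadjusted p under 0.05 there. Of 4 mesothelial genes 2 were higher in the Eif2s3y-low set, Wt1 (r 0.62) and Krt19, and 0 were called in the Eif2s3y-high set by limma, with 1 at an unadjusted p under 0.05. Within the arrays with neither kind 0 of the 4 were called by limma and 1 had an unadjusted p under 0.05, with a highest r of 0.29. Of 14 macrophage genes 0 were called in the Eif2s3y-high set, with 2 at an unadjusted p under 0.05, and 0 were higher and 6 lower in the Eif2s3y-low set, where Csf1r, the growth factor receptor of macrophages, had r -0.30. With array medians removed 1 of these 14 was lower, where 18.2% of genes were called. Of 9 brown fat genes 2 were higher in the Eif2s3y-high set, Ppargc1a (r 0.44) and Fabp3 (r 0.40), of which Fabp3 was called without the kidney arrays, and 1 in the Eif2s3y-low set, Dio2 (r 0.37). The epididymis list, with 10 measured genes, was called 0 times in either set by limma, with 0 at an unadjusted p under 0.05 and with median r of 0.085 in the Eif2s3y-high set and -0.077 in the Eif2s3y-low set. No gene of the lists for B cells, T cells, skeletal muscle or exocrine pancreas was called over all mice of either set by limma, and at an unadjusted p under 0.05 there was 1 T cell gene in the Eif2s3y-high set and 1 B cell gene in the Eif2s3y-low set. Within the ovary arrays without mouse_322 markers of these cells were lower with Hao2, 5 of 6 for B cells (median r -0.39), 4 of 8 for T cells (-0.32), 3 of 6 for skeletal muscle (-0.32), 2 of 2 for exocrine pancreas (-0.39) and 11 of 14 for macrophages (-0.39), with 0 higher in each list, where 32.8% of genes were called. Their part in the results on those arrays was not tested. Of 11 liver genes Ttr was higher and Hpd lower in the Eif2s3y-high set, and Hpd and Apob were lower in the Eif2s3y-low set. Without the kidney arrays 0 of the 11 were called in the Eif2s3y-high set by limma, 3 had an unadjusted p under 0.05 and the highest r was 0.066. Within the Eif2s3y-low arrays with neither kind 0 were called and 0 had an unadjusted p under 0.05.

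**Figure D5:**
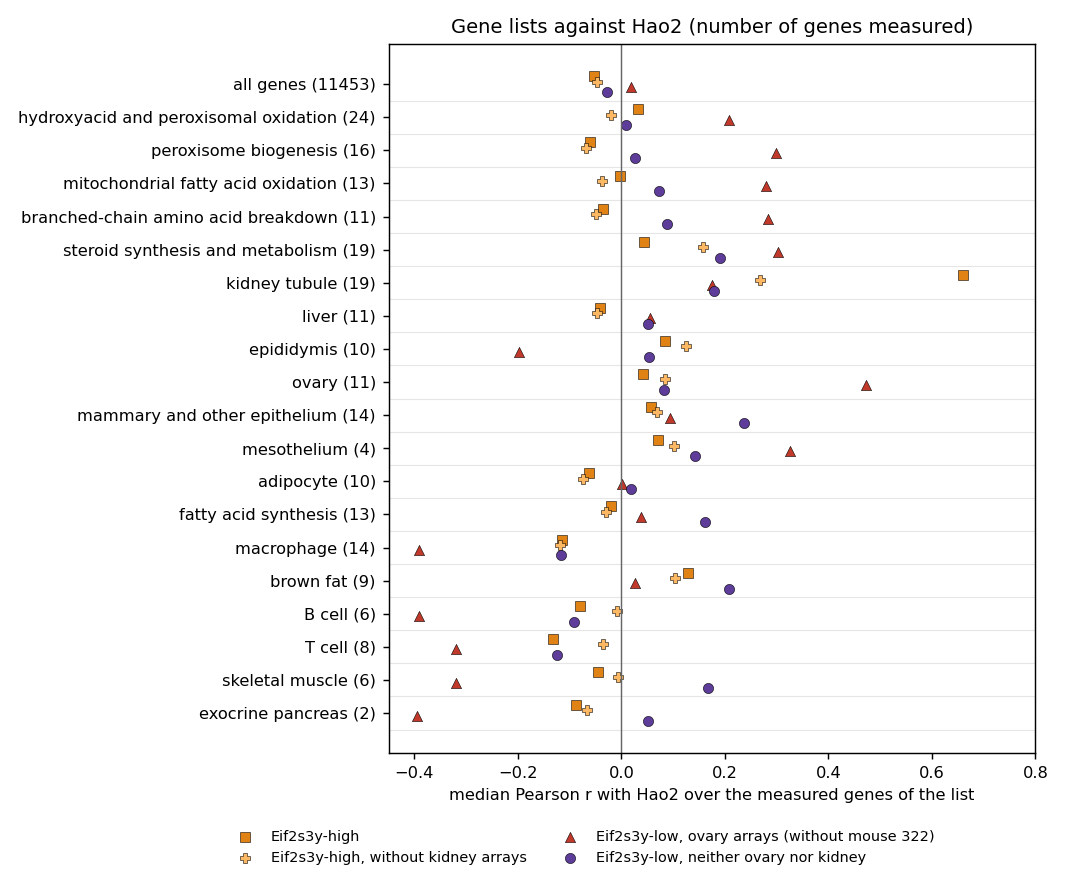
Median Pearson r with Hao2 over the measured genes of each list (x axis), with the number of genes in brackets and all genes in the top row. Symbols stand for the Eif2s3y-high set with and without the arrays with kidney transcripts, the Eif2s3y-low arrays with ovary transcripts without mouse_322, and the Eif2s3y-low arrays with neither kind. The kidney tubule list reaches 0.66 in the Eif2s3y-high set and 0.27 without its kidney arrays.

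The genes that fell as Hao2 went up did so by little. Over the Eif2s3y-high mice the most negative r was that of Nr1i3, a nuclear receptor of drug metabolism, at -0.34 with a slope of -0.049 ± 0.011, and Galr1, a galanin receptor, had -0.33. Among Eif2s3y-low mice Rps25, a ribosomal protein gene, had the most negative r, -0.47, and Nr1h3, the oxysterol receptor LXR alpha, had -0.45 with a slope of -0.051 ± 0.009. Within the arrays with neither kind the r of Rps25 and Nr1h3 was -0.26 and -0.15, and neither passed the threshold there.

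The mice were also split into 3 ranges of mouse numbers of about equal size (lower, middle and upper), and what the numbers follow is not stated in the labels. Arrays with kidney transcripts numbered 5, 0 and 2 in these ranges of the Eif2s3y-high set, and arrays with ovary transcripts 24, 15 and 14 in those of the Eif2s3y-low set. The SD of Hao2 in the Eif2s3y-high set was 1.60, 0.58 and 1.31 in the 3 ranges, and in the Eif2s3y-low set it was 2.42, 2.27 and 1.98. For the middle range of the Eif2s3y-high set, which held 50 mice and no array with kidney transcripts, Hao2 ran only from -4.00 to -1.50, yet Slc17a1 had r 0.65 (adjusted p 0.00321) and Slc34a1 r 0.59 (adjusted p 0.00885). Hsd3b1 had r 0.34, 0.15 and -0.037 in the ranges of the Eif2s3y-high set and 0.87, 0.92 and 0.95 in those of the Eif2s3y-low set. Slc34a1 had r 0.78, 0.59 and 0.90 in the Eif2s3y-high set. Hsd3b2 had r 0.84, 0.41 and 0.82 in the Eif2s3y-high set, of which the middle value did not pass the threshold (adjusted p 0.684).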

How the data were processed

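Adipose RNA of 295 F2 mice was measured on 2-colour arrays, 1 array per mouse, so the spread between mice includes technical error. The deposited values are log10 ratios of mouse (Cy3) over pool (Cy5), as read from the values: with base 10 and this direction the linear ratio of Hao2 averaged 1.02 over the mice, near the 1 that a pool of equal portions gives, against 6.03 with the direction turned. The scale is not stated in the labels, and neither are the scanner processing and normalization. The deposited log10 values lie between -2 and 2, and 527 lie at these limits, none of Hao2. Of 43365 array pairs 944 correlated below -0.3 (lowest -0.52), each with exactly 1 array with epididymis transcripts, and the dyes given in the labels were kept. The sample labels speak of 330 mice and the series text of 295. One mouse has the number 399 in its title and 339 in its source name, and the title was used.

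Values were multiplied by 3.32 to log2. Of 23387 probes, 22894 measured in at least 90% of mice were analysed and 493 were left out. The 7762 gaps were filled with the probe's mean. Of the probes, 13644 had 1 gene symbol, 48 several and 9695 none, and 12652 symbols were updated by Entrez ID. A gene was read by its most variable probe with 1 symbol. Each probe was fitted on Hao2 within a set, and as an interaction over both, with limma 3.58.1 in R 4.3.3, and p-values were adjusted by Benjamini-Hochberg over 22893 probes. The fit was tested on simulated data. The rest was done in Python 3.11.15 with matplotlib 3.10.9, SciPy 1.17.1, pandas 2.3.3 and NumPy 2.4.6. The number of arrays limits the precision.

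Hao2, the sets and the 19 gene lists (220 of 295 genes measured) were chosen with earlier results of these data known. Named were the 10 genes of highest and lowest r per set, the neighbours, members of the hydroxyacid and steroid lists, up to 4 members of each other list, the 5 genes with the smallest p for a slope difference, Lep and Apoe. Hao3, on one list, is a synonym of Hao2 in RefSeq and was dropped. The alternatives were array centring, filters, gaps, the rank of Hao2, 3 ranges of mouse numbers, the first principal component and left-out arrays or mice.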

Additional observations from a re-analysis of the deposited data

Results flagged for a closer look

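The slope on Hao2 differed between the Eif2s3y-high and the Eif2s3y-low set, by limma's test of the difference itself, for 1346 of 22893 probes. Slc22a30, a gene of the organic anion carrier family, had the smallest p, with a difference of 0.83 ± 0.05 (SE), from a slope of 0.87 in the Eif2s3y-high set and 0.034 in the Eif2s3y-low set. Slc22a22, a prostaglandin carrier of the kidney, differed by 0.51 ± 0.03, Slc7a13, an amino acid carrier of the proximal tubule, by 0.62 ± 0.04, and Slc22a6 by 0.70 ± 0.04. Of the neighbours of Hao2, Hsd3b2 differed by 0.52 ± 0.03, Hsd3b5 by 0.43 ± 0.05 and Hsd3b1 by -1.02 ± 0.07, the last with the larger slope in the Eif2s3y-low set. Since Hsd3b1 was named when Hao2 was chosen, its difference is a description and no test.

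Without the arrays with ovary or kidney transcripts the differences were 0.49 for Slc22a30, 0.24 for Hsd3b2, 0.17 for Slc22a22, 0.27 for Slc7a13 and 0.38 for Slc22a6, each past the adjusted threshold. They were 0.26 for Hsd3b5 (adjusted p 0.276) and -0.28 for Hsd3b1 (adjusted p 0.188), which did not pass. Mouse_12, with Hsd3b2 at 4.26, was still among those arrays. The part of these organs in the differences was not tested further.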

How the results depend on the processing

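No paired analysis was possible because the labels hold 1 group, in which a number names a mouse. Alternatives that leave out organ arrays, mouse_322 or mouse_12 and mouse_73 were chosen after seeing the data. No Hao2 value lay at a limit and Hao2 has 1 probe, so those alternatives were not run, and the Eif2s3y-low set has no epididymis arrays, no mouse_310 and no mice of middle Eif2s3y level. Where no cause is named below, the cause was not tested.

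Counts of probes and of neighbours were taken anew in each alternative, so they do not follow the members called first. Against 1038 probes called in the Eif2s3y-high set, the count was 394 with the mouse number range as a block. It was 247, 14 and 277 in the lower, middle and upper range alone, which hold fewer mice. Without mice of middle Eif2s3y level it was 534, and without mouse_12 and mouse_73 it was 489. In the middle range 0 of the 3 neighbours were called by limma, and of the 20 strongest genes 10, 7 and 10 were called in the 3 ranges. In the Eif2s3y-low set the 5550 became 1096, 633 and 1052 in the 3 ranges, 2774 when the first principal component was a covariate, 222 without ovary arrays, 194 without ovary or kidney arrays and 11447 on ovary arrays alone, or 7160 there without mouse_322. Its count of called neighbours was 7 and became 4 with the block, 1, 2 and 1 in the 3 ranges, and 4 with the component. It was 3 without ovary arrays and 2 without both kinds. Of the 20 strongest genes of the Eif2s3y-low set, 10 were called in the middle range, 12 with the component, 6 without ovary arrays and 9 without both kinds. On ovary arrays alone 12 were called, or 13 there without mouse_322. The 1346 slope differences became 425, 3 and 481 in the 3 ranges, 109 without ovary arrays and 30 without both kinds.

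Some r changed sign. In the Eif2s3y-high set they were -0.15 for Fdx1 and -0.018 for Nudt19 in the middle range, -0.037 for Hsd3b1 and -0.12 for Nr5a1 in the upper range, and -0.087 for Nudt19 and -0.021 for Pecr without kidney arrays. In the Eif2s3y-low set the component gave 0.059 for Hsd17b4, 0.20 for Hsd3b4, 0.23 for Lep and -0.17 for Trim45, and the upper range gave -0.00089 for Hsd3b2. Without ovary arrays r was -0.028 for Grhpr, 0.046 for Hao1 and 0.014 for Slc5a2, and without both kinds -0.050 for Grhpr, 0.029 for Hao1 and 0.0027 for Ptgfrn. On ovary arrays alone, with and then without mouse_322, r was 0.37 and 0.39 for Amacr, 0.35 and 0.42 for Apoe, -0.070 and -0.22 for Cyp17a1, 0.084 and 0.037 for Ptgfrn, -0.0077 and -0.0061 for Slc34a1, 0.43 and 0.36 for Slc7a13, and 0.11 and 0.039 for Vtcn1. There it was -0.096 for Pipox and -0.062 for Slc22a6 with mouse_322, and 0.12 for Rps25 without it.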

Other observations

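Of the mice with Hao2 above the pool, 8 lay on arrays scored as having neither ovary nor kidney transcripts. Mouse_12 of the Eif2s3y-high set had Hao2 at 0.28, with Hsd3b2 at 4.26, Cyp17a1 at 3.25, Cyp11a1 at 0.41 and Slc34a1 at -2.91. Mouse_73 of the same set had Hao2 at 1.03, with Hsd3b1 at 0.35, Cyp11a1 at 0.28, Cyp21a1 at 0.71 and Slc34a1 at -1.53. In the Eif2s3y-low set mouse_144 had Hao2 at 2.36, Hsd3b1 at 2.68, Cyp11a1 at 1.51, Cyp21a1 at 2.10 and Slc34a1 at -2.83, and so was high in Hsd3b1 and low in the kidney gene. Mouse_111 had Hao2 at 1.37 while Hsd3b1 was -3.97 and Slc34a1 -1.49, so that neither gene was above the pool. The others had Slc34a1 above the pool, though their kidney score was below the threshold. It was 1.82 in mouse_310 and 1.07 in mouse_50 of the Eif2s3y-high set. In the Eif2s3y-low set it was 1.87 in mouse_77 and 0.13 in mouse_296, where Hsd3b1 was 0.12.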
